A study of Homo sapiens with 17 samples.

Results

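Expression of 10 genes of the nuclear lamina and of nuclear high-mobility-group proteins was followed in senescent human fibroblasts, with and without siRNA knockdown of SMARCA4. The genes were the lamins LMNB1, LMNB2 and LMNA, their partners LBR, TMPO and EMD, the HMGB genes HMGB1 and HMGB2, and the HMGA genes HMGA1 and HMGA2. They were chosen by name, with earlier results of these data known, from count tables that listed 62754 genes. All 10 passed the filter on low counts, as did 19473 genes in total. The cells were IMR90 ER:RAS, lung fibroblasts with a retroviral construct whose RASG12V part is switched on by 4-hydroxytamoxifen (4OHT). Every library came from such cells on day 7, including the controls, which also carried the construct. DMSO siNT (n = 5) received the vehicle and non-targeting siRNA, 4OHT siNT (n = 6) received 4OHT and non-targeting siRNA, and 4OHT siSMARCA4 (n = 6) received 4OHT and siRNA against SMARCA4, an ATPase of the SWI/SNF chromatin remodeler. No DMSO group received siSMARCA4, so the effect of SMARCA4 knockdown outside senescence was not measured. The labels carry a number (2 or 4) beside the siRNA name and a tag (V or VM) whose meanings they do not give, so whether a group received 1 siRNA or several is not stated, and they do not say that libraries came from separate cultures, so p-values measure the spread between these libraries. All 6 4OHT siNT libraries had the tag VM.

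The nuclear lamina is a meshwork of lamin filaments under the inner nuclear membrane that anchors heterochromatin. Loss of lamin B1 is a widely used marker of senescence. HMGB proteins bend DNA and loosen chromatin, whereas HMGA proteins bind AT-rich DNA in the minor groove and have been described in senescence-associated heterochromatin.

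Library totals ranged from 39109479 to 68978119 counts. SMARCA4 was 168 to 215 CPM (counts per 1000000 counts of a library) in DMSO siNT, 252 to 285 CPM in 4OHT siNT and 68.4 to 126 CPM in 4OHT siSMARCA4, a 3.04-fold lower level than in 4OHT siNT (adjusted p = 5.14e-07, edgeR). All CPM here were scaled between libraries by TMM factors. All 10 fibroblast markers were detected. Their summed level was 28963 to 35100 CPM in DMSO siNT, 17945 to 27871 CPM in 4OHT siNT and 9456 to 16655 CPM in 4OHT siSMARCA4, and its part in the changes below was not tested. Of the 10, 7 were lower and 1 higher in 4OHT siNT than in DMSO siNT, where 27.4% of all genes tested were lower and 27.0% higher. With siSMARCA4, 8 were lower than with siNT, where 13.8% of all genes were lower. Of the 6 epithelial markers, KRT5 and KRT14 were at 0 in every library, and the summed level was 71.0 to 92.7, 65.3 to 81.7 and 35.3 to 58.3 CPM in the 3 groups in the order above. Of the 6 leukocyte markers, CD68 alone passed the filter and PTPRC did not exceed 0.131 CPM (summed level 19.97 to 26.9, 22.1 to 29.7 and 20.1 to 30.4 CPM). The 5 endothelial markers summed to 3.44 to 10.8, 9.61 to 14.1 and 6.78 to 10.4 CPM; CDH5 did not exceed 0.118 CPM, and PECAM1 was 0.790 to 1.11 CPM in 4OHT siNT and at most 0.0523 CPM in DMSO siNT. The part of these markers in the results was not tested. Bulk libraries cannot tell apart fewer cells of a type and less RNA per cell.

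To place the lamina genes in DNA, the RefSeq promoter table of GRCh38.p14 was read. It held 8 of the 10 genes, without HMGB2 and HMGA2, and for 6 of the 8 a window began exactly at the start of the reference (MANE Select) transcript. Windows run from 250 bases before the start to 50 after it. The words searched on both strands were CCAAT, the box of that name, TTTGAA (cell cycle homology region), TTTCCCGC, TTTGGCGC, TTTCGCGC and TTTGCCGC (E2F site), and TGANTCA (AP-1 site); no match overlapped that of another word. CCAAT occurred in 5 of those 6 windows and in 34.6% of all 35116 windows. LMNB1 held 1 match, TMPO 2, EMD 2, HMGB1 3 and HMGA1 1, and LMNB2 held none. TTTGAA was found in LMNB2 only among the 6, against 15.2% of all windows. No E2F word was found in any of the 6 (3.31% of all windows), nor an AP-1 word (7.71%). The windows of LMNA and LBR begin 7995 and 783 bases away from the reference start. The LMNA window held none of the words, and the LBR window held 1 AP-1 word, 51 bases before its start. A match is a string of letters, and whether a factor binds there was not measured.

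The sequences below show where the CCAAT words sit in genes that were lower in senescence, and capitals mark the word (in LMNB1 it reads ATTGG, being on the other strand). The TMPO and HMGB1 stretches are the 250 bases before the start, and the LMNB1 and EMD stretches are 30 bases around the word farthest from the start. In TMPO the words begin 64 and 32 bases before the start, and in HMGB1 they begin 103, 59 and 28 bases before it. The LMNB1 word begins 138 bases and the EMD word 224 bases before the start.
LMNB1, chr5:126776986-126777015, plus strand: tgcctgctccccATTGGcccatggtagtca
EMD, chrX:154379059-154379088, plus strand: ctccatcactagCCAATccccgtgcttgtg
TMPO, chr12:98515340-98515589, plus strand: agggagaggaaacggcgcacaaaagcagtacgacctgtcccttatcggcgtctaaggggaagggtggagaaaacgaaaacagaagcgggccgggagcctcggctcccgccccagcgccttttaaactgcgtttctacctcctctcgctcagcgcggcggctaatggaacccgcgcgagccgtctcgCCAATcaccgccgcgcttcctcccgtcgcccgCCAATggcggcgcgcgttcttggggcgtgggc
HMGB1, chr13:30465937-30466186, minus strand: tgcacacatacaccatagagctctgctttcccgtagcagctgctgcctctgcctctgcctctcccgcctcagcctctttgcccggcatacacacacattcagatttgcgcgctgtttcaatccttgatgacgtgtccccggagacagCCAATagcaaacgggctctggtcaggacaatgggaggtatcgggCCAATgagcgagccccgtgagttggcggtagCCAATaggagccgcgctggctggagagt

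The first comparison asked how these genes respond to RAS-induced senescence without SMARCA4 knockdown (4OHT siNT against DMSO siNT). LMNB1 and HMGB2 fell most, 17.6-fold and 11.02-fold. TMPO, LBR, LMNA and HMGB1 fell 2.64-fold, 2.37-fold, 2.04-fold and 1.97-fold. LMNB2 and EMD fell 1.26-fold and 1.20-fold, HMGA2 rose 1.31-fold, and HMGA1 did not pass the test. In all, 8 genes fell and 1 rose at an adjusted p under 0.05, while 27.4% of all genes tested were called lower and 27.0% higher. The median log2 fold change was -1.001 over the 10 genes and 0.0038 over all genes tested. Scaled by library totals alone, the latter was -0.11. The calls over all genes then split 4222 higher to 6465 lower in place of 5256 to 5345. The calls of the 10 genes did not change with that scaling. In DMSO siNT all V libraries were above all VM libraries for LMNB1, LBR and TMPO. For LMNA, EMD, HMGA1 and HMGA2 they were all below. With VM libraries alone LBR was -1.18, TMPO -1.25, LMNA -1.18 and EMD -0.32, each still called.

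LMNB1 (chr5:126776623-126837020, plus strand) encodes lamin B1, a permanently farnesylated lamin that stays at the membrane. In DMSO siNT it was 32.1, 33.3, 17.9, 25.9 and 19.7 CPM (2-1V, 2-2V, 2-2VM, 4-2VM and 4-3VM, the order used for each gene below). In 4OHT siNT it lay between 1.36 and 1.63 CPM with a median of 1.41 CPM. The groups were far apart, with the lowest control above the highest senescent library. LMNB1 fell by 4.14 on the log2 scale (SE 0.18, adjusted p = 1.25e-12, edgeR), which left 5.68% of the control level. The 4OHT siNT libraries held 55 to 90 raw counts of LMNB1 and the controls 1030 to 1838, so the senescent level rests on few counts. Among the controls both V libraries were higher than the 3 VM libraries, and with VM libraries alone the change was -3.89.

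LMNB2 (chr19:2427638-2456959, minus strand) encodes lamin B2, the other B-type lamin. Its controls were at 119, 149, 145, 132 and 108 CPM. 4OHT siNT libraries ran from 94.6 to 116 CPM with a median of 103 CPM, so the groups overlapped. LMNB2 was lower by far less than LMNB1, with a log2 fold change of -0.33 (SE 0.11, adjusted p = 0.018, edgeR). With libraries numbered 4 alone, the value was -0.21 (adjusted p = 0.44), and with V and VM libraries of a number summed it was -0.29 (adjusted p = 0.057).

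LMNA (chr1:156082573-156140081, plus strand) encodes lamins A and C, the A-type lamins. The control libraries held 941, 1084, 1097, 1241 and 1483 CPM. After 4OHT the lowest, median and highest were 517, 579 and 615 CPM, below every control. LMNA fell by 1.03 (log2, SE 0.15, adjusted p = 7.53e-06, edgeR).

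The 3 partners all fell. LBR (chr1:225401502-225428925, minus strand), the lamin B receptor, is an inner-membrane protein that tethers heterochromatin. It was 33.7, 34.2, 29.7, 29.4 and 28.4 CPM in the controls. 4OHT siNT gave 11.2 to 16.1 CPM (median 13.02 CPM), without overlap. The log2 fold change of LBR was -1.24 (SE 0.10, adjusted p = 5.34e-09, edgeR). TMPO (chr12:98515579-98550351, plus strand) encodes the lamina-associated polypeptides 2, which bind lamins and chromatin. Control values were 70.5, 78.9, 52.7, 61.9 and 54.1 CPM. Senescent libraries lay at 21.3 to 27.3 CPM (median 24.2 CPM), again clear of the controls. TMPO fell by 1.40 (log2, SE 0.13, adjusted p = 2.32e-08, edgeR). The antisense gene TMPO-AS1 overlaps TMPO exons, and counting used strand.

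EMD (chrX:154379273-154381574, plus strand) encodes emerin, a LEM-domain protein of the inner membrane. The controls were tight, at 59.3, 60.1, 65.2, 60.1 and 64.2 CPM. In 4OHT siNT EMD was 46.6 to 56.7 CPM with a median of 50.8 CPM. Every senescent library was below every control, but the step was small: the log2 fold change was -0.26 (SE 0.07, adjusted p = 0.0042, edgeR). In libraries numbered 4 alone it was -0.21 (adjusted p = 0.14). With the full library label (such as 4-2VM) as a block it was -0.24 (adjusted p = 0.071, edgeR).

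HMGB2 (chr4:173331376-173334432, minus strand) encodes a DNA-bending protein abundant in dividing cells. Its control values were 45.4, 56.5, 36.2, 47.4 and 59.1 CPM. In 4OHT siNT the gene was at 3.50 to 6.09 CPM (median 4.31 CPM), with no overlap. HMGB2 fell by 3.46 (log2, SE 0.18, adjusted p = 1.02e-11, edgeR), leaving 9.07% of the control level. HMGB1 (chr13:30456704-30617597, minus strand), its close paralog, also acts as an alarmin when released. Controls held 198, 211, 182, 199 and 239 CPM. With 4OHT, HMGB1 was 85.6 to 126 CPM (median 101 CPM), below all controls. The log2 fold change of HMGB1 was -0.97 (SE 0.12, adjusted p = 1.65e-06, edgeR). HMGB1 has 48 named pseudogenes in the tables, which took 8.26 to 9.68% of the joint counts in DMSO siNT, 9.16 to 11.2% in 4OHT siNT and 6.004 to 9.08% in 4OHT siSMARCA4, so part of its reads may be split.

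The HMGA genes did not fall. HMGA1 (chr6:34236873-34246231, plus strand) encodes an AT-hook protein. Its control values were 1153, 1200.2, 1233, 1309.7 and 1362 CPM, within the 1143 to 1546 CPM (median 1263 CPM) of 4OHT siNT. The log2 fold change was 0.07 (95% interval -0.15 to 0.29, adjusted p = 0.60, edgeR), and its sign turned with scaling by library totals (-0.04). HMGA2 (chr12:65824460-65966291, plus strand), a second AT-hook protein best known from embryonic and tumor cells, was 405, 500.3, 721, 706 and 705 CPM in the controls. The 4OHT siNT libraries were 777 to 838 CPM (median 796 CPM), above all controls. HMGA2 rose by 0.39 (log2, SE 0.12, adjusted p = 0.0086, edgeR). The 2 lowest controls were those tagged V, and with VM libraries alone the value was 0.14 (adjusted p = 0.078). With libraries numbered 4 alone it was also 0.14 (adjusted p = 0.36). Without control 2-1V it was 0.25 (adjusted p = 0.030, edgeR), and with the library label as a block 0.20 (adjusted p = 0.094, edgeR).

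**Figure D1:**
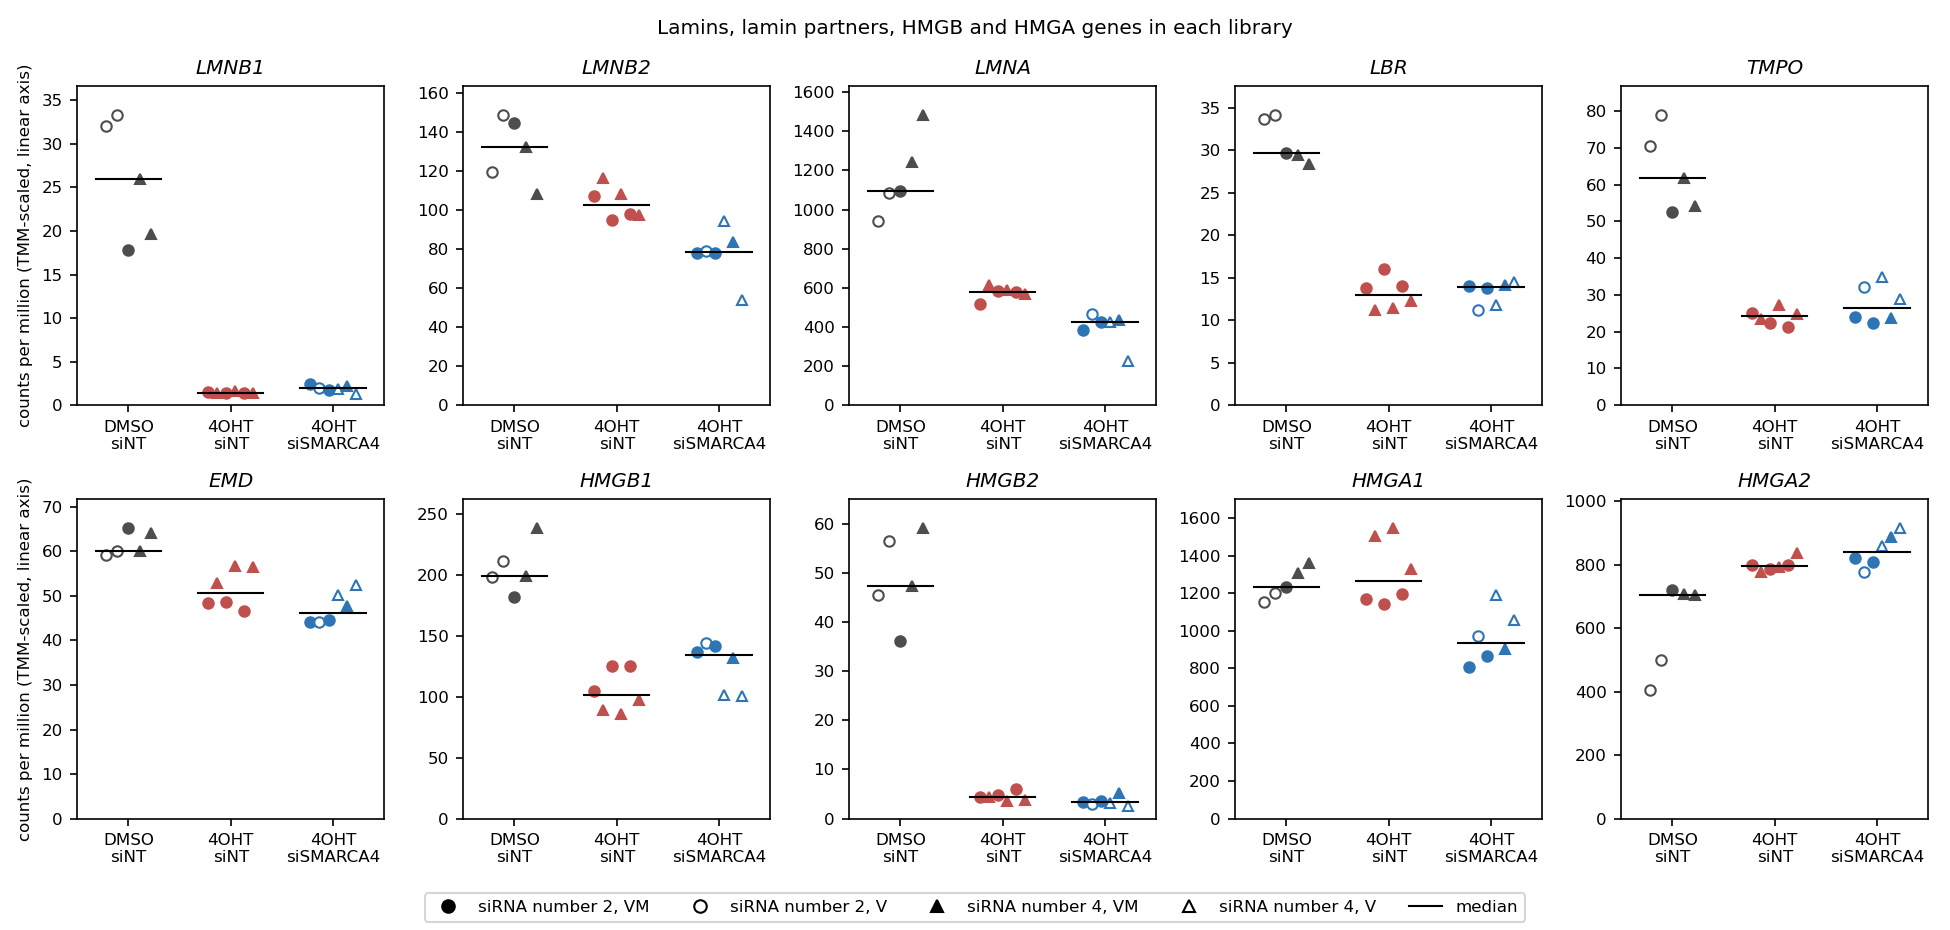
CPM (TMM-scaled, linear axes from 0) of each of the 10 genes in every library, by group; circles and triangles are libraries numbered 2 and 4, filled symbols carry the tag VM, and lines are medians. LMNB1 dropped from 17.9 to 33.3 CPM in DMSO siNT to 1.36 to 1.63 CPM in 4OHT siNT, and the open DMSO symbols of HMGA2 (405 and 500.3 CPM) lie below the filled ones.

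The second comparison asked what knockdown of SMARCA4 does within senescence (4OHT siSMARCA4 against 4OHT siNT). LMNA, LMNB2 and HMGA1 fell to 68.6%, 75.1% and 73.4% of their 4OHT siNT levels. None of the 10 rose, and LMNB1 and HMGB2 stayed far below the DMSO controls. Thus 3 genes fell and 0 rose, where 13.8% of all genes tested were called lower and 10.4% higher (2685 and 2018 genes, against 2229 and 2467 when scaled by library totals alone, with the calls of the 10 genes the same); at an unadjusted p under 0.05, LMNB1 and HMGB1 were higher and HMGB2 lower besides. The median log2 fold change was -0.06 over the 10 genes and -0.02 over all genes tested.

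LMNA was 384, 468, 428, 425, 435 and 224 CPM with siSMARCA4 (2-1VM, 2-3V, 2-3VM, 4-2V, 4-2VM and 4-3V). All of these were below the lowest 4OHT siNT library (517 CPM), and 4-3V was far below the others. The log2 fold change was -0.54 (SE 0.14, adjusted p = 0.0088, edgeR), and without 4-3V it was -0.42 (adjusted p = 0.0039). LMNB2 lay at 53.7 to 94.4 CPM (median 78.6 CPM), under the 94.6 CPM of the lowest 4OHT siNT library. Its log2 fold change was -0.41 (SE 0.11, adjusted p = 0.011, edgeR), and -0.33 (adjusted p = 0.011) without 4-3V, which was again the lowest library. HMGA1 was 805 to 1191 CPM (median 936 CPM) against 1143 CPM or more in 4OHT siNT, with 1 siSMARCA4 library, 4-2V, inside the siNT range. Its siSMARCA4 libraries tagged V (972 to 1191 CPM) all lay above those tagged VM (805 to 901 CPM), and every 4OHT siNT library was VM. HMGA1 fell by 0.45 (log2, SE 0.10, adjusted p = 0.0038, edgeR), and with VM libraries alone the value was -0.60 (adjusted p = 0.0011, edgeR). Among libraries numbered 4 alone none of these 3 passed the test, at -0.67 for LMNA (adjusted p = 0.10), -0.43 for LMNB2 (adjusted p = 0.19) and -0.44 for HMGA1 (adjusted p = 0.069). Among libraries numbered 2 alone all 3 passed in edgeR. The values were -0.35 for LMNA (adjusted p = 0.023), -0.31 for LMNB2 (adjusted p = 0.028) and -0.37 for HMGA1 (adjusted p = 0.0078).

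For the other 7 genes the difference did not pass the test. LMNB1 was 1.31 to 2.48 CPM (median 1.93 CPM) with siSMARCA4, and 5 of 6 libraries exceeded the highest 4OHT siNT library. Its log2 fold change was 0.40 (95% interval 0.04 to 0.76, adjusted p = 0.096, edgeR). Left out in turn, library 4-3V took it past the threshold (0.49, adjusted p = 0.036), as did VM libraries alone (0.57, adjusted p = 0.013), while libraries numbered 2 alone (0.54, adjusted p = 0.17) or 4 alone (0.34, adjusted p = 0.38) did not. HMGB1 was 101 to 144 CPM (median 134 CPM) with a log2 fold change of 0.27 (95% interval 0.02 to 0.51, adjusted p = 0.10, edgeR). It too passed without 4-3V (0.33, adjusted p = 0.044), without 4-2V (0.32, adjusted p = 0.046), with libraries numbered 2 alone (0.29, adjusted p = 0.040) and with VM libraries alone (0.40, adjusted p = 0.044), but not with libraries numbered 4 alone (0.33, adjusted p = 0.19).

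HMGB2 was 2.59 to 5.21 CPM (median 3.31 CPM), and 4 of 6 values lay below the lowest 4OHT siNT library (3.50 CPM). The log2 fold change was -0.35 (95% interval -0.71 to -0.0013, adjusted p = 0.14, edgeR), and without 4-2VM, its highest library, -0.50 (adjusted p = 0.026). All 3 V libraries of HMGB2 (2.59 to 3.23 CPM) lay below all 3 VM libraries (3.39 to 5.21 CPM), and every 4OHT siNT library was VM. With VM libraries alone the HMGB2 value was -0.12 (adjusted p = 0.72), with libraries numbered 4 alone -0.019 (adjusted p = 0.97), with libraries numbered 2 alone -0.59 (adjusted p = 0.052), and with the full library label (such as 4-2VM) as a block, which left 4 residual degrees of freedom, -0.17 (adjusted p = 0.72). No V label was shared between groups, so the block too compared VM libraries only. TMPO was 22.5 to 35.0 CPM, with all 3 V libraries (28.9 to 35.0 CPM) above all 3 VM libraries (22.5 to 24.1 CPM). The log2 fold change of TMPO was 0.21 (95% interval -0.05 to 0.46), and with VM libraries alone -0.02. LBR (11.2 to 14.6 CPM) differed by 0.01 (95% interval -0.19 to 0.21), EMD (44.1 to 52.6 CPM) by -0.13 (95% interval -0.27 to 0.01) and HMGA2 (778 to 914 CPM) by 0.08 (95% interval -0.16 to 0.32).

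**Figure D2:**
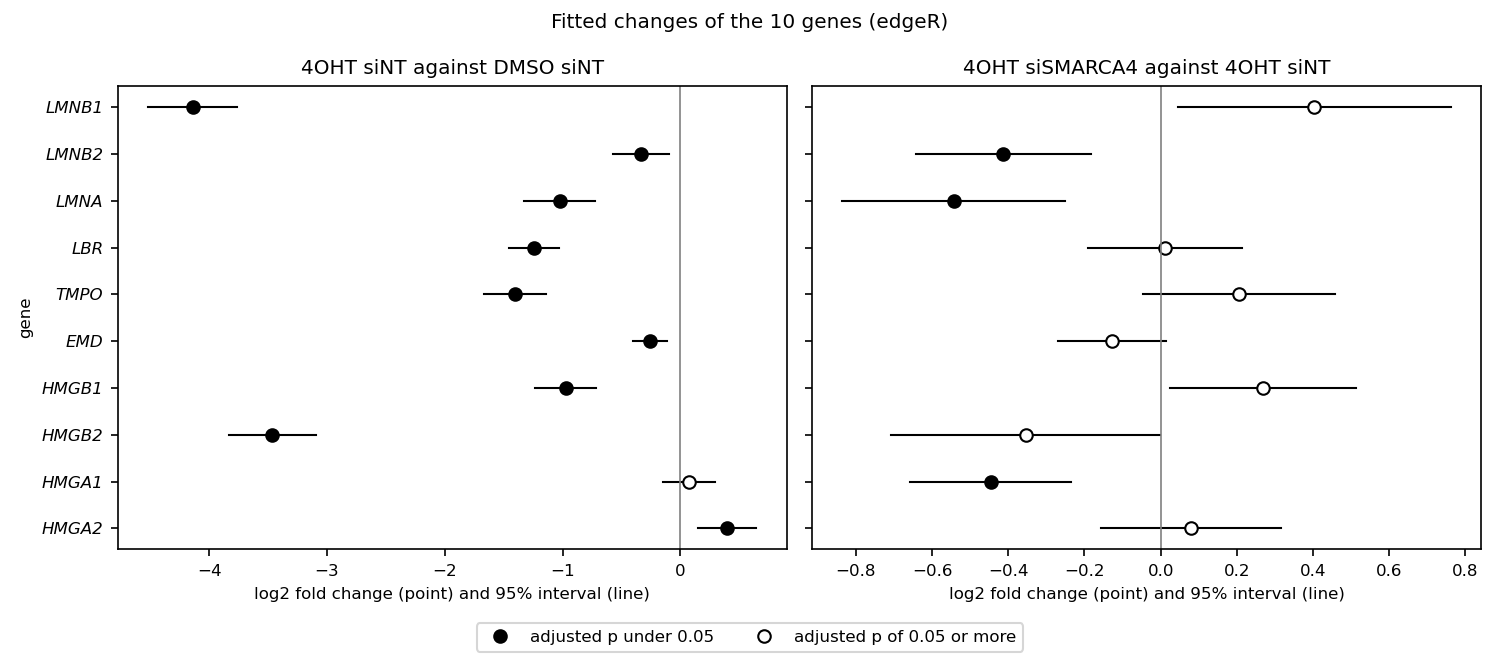
Fitted log2 fold change (point) and 95% interval (line) of each gene in 4OHT siNT against DMSO siNT (left) and 4OHT siSMARCA4 against 4OHT siNT (right); filled points passed an adjusted p under 0.05. On the left 8 genes are called lower and HMGA2 higher, and on the right LMNB2, LMNA and HMGA1 are called lower.

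Against the DMSO siNT controls directly, all 10 genes were called in 4OHT siSMARCA4: 9 lower and HMGA2 higher, where 28.6% of all genes were called lower and 26.5% higher. This comparison shares its libraries with both others. LMNB1 was at 7.50% of the control level, against 5.68% in 4OHT siNT. HMGB2 was at 7.10% against 9.07%. LMNA was at 33.7% against 49.1%, LMNB2 at 59.5% against 79.3%, and HMGB1 at 61.3% against 50.9%. LBR was at 42.6% against 42.3%, TMPO at 43.6% against 37.8% and EMD at 76.5% against 83.6%. HMGA1 was at 77.1% of the control level (log2 fold change -0.37, adjusted p = 0.0052, edgeR), and with libraries numbered 4 alone its value was -0.36 (adjusted p = 0.070). HMGA2 was at 139% (0.47, adjusted p = 0.0023, edgeR), with 0.32 in libraries numbered 4 alone (adjusted p = 0.057), 0.27 with the library label as a block (adjusted p = 0.081) and 0.23 in VM libraries alone (adjusted p = 0.021).

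A difference between libraries numbered 2 and 4 was tested as an interaction. In DMSO siNT the V libraries were all numbered 2 and the libraries numbered 4 were all VM. In 4OHT siSMARCA4 V was more frequent among those numbered 4. Number and tag thus cannot be fully told apart. None of the 10 genes passed, where 2.10% of all genes did for senescence and 1.06% for siSMARCA4. HMGB1 came nearest: in senescence it changed by -0.73 (SE 0.11) with number 2 and -1.27 (SE 0.12) with number 4, a difference of 0.54 (adjusted p = 0.075, edgeR). At an unadjusted p under 0.05, HMGB1 differed in senescence and LBR with siSMARCA4 (difference -0.39, adjusted p = 0.24, edgeR), and the other 8 genes in neither comparison.

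Ratios of 2 genes within a library do not depend on the scaling between libraries, and were taken per base of transcript. LMNB1 to LMNA was 0.0146 to 0.0375 in DMSO siNT and 0.00247 to 0.00330 in 4OHT siNT, an 8.52-fold lower ratio (adjusted p = 0.0031, exact 2-sided permutation test, adjusted over 10 tests; the unadjusted p of 0.0022 is the smallest the design allows). With siSMARCA4 it was 0.00443 to 0.00712, above all 4OHT siNT libraries and 1.95-fold higher (adjusted p = 0.0031, exact permutation test). Of its terms, LMNA fell in that comparison, and LMNB1 taken alone (log2 fold change 0.40) did not pass the test. LMNB1 to LMNB2 went from 0.198 to 0.431 in controls to 0.0191 to 0.0242 in 4OHT siNT (13.7-fold lower) and 0.0316 to 0.0510 with siSMARCA4 (1.75-fold higher), both without overlap and with adjusted p = 0.0031 (exact permutation tests). LMNB2 to LMNA rose 1.60-fold in senescence (adjusted p = 0.0031, exact permutation test) and did not pass with siSMARCA4 (1.11-fold, adjusted p = 0.15).

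HMGB2 to HMGB1 was close to equal in controls, at 0.752 to 1.01, and 0.143 to 0.184 in 4OHT siNT, a 5.56-fold lower ratio (adjusted p = 0.0031, exact permutation test). With siSMARCA4 it was 0.0759 to 0.149 and 1.56-fold lower again (adjusted p = 0.0081, exact permutation test), with 1 library inside the siNT range. HMGA2 to HMGA1 rose 1.29-fold in senescence (0.164 to 0.273 against 0.239 to 0.321, adjusted p = 0.038, exact permutation test). That call was lost with VM libraries alone (log2 difference 0.16 in place of 0.37, adjusted p = 0.22), and on leaving out V control 2-1V (0.26) or 2-2V (0.32) or 4OHT siNT library 2-1VM, 2-2VM, 2-3VM or 4-3VM (0.33 to 0.36). The log2 difference was 0.63 with libraries numbered 2 alone and 0.059 with libraries numbered 4 alone, subsets too small for the test to pass. With siSMARCA4 the ratio reached 0.336 to 0.476, without overlap and 1.44-fold higher than in 4OHT siNT (adjusted p = 0.0031, exact permutation test).

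**Figure D3:**
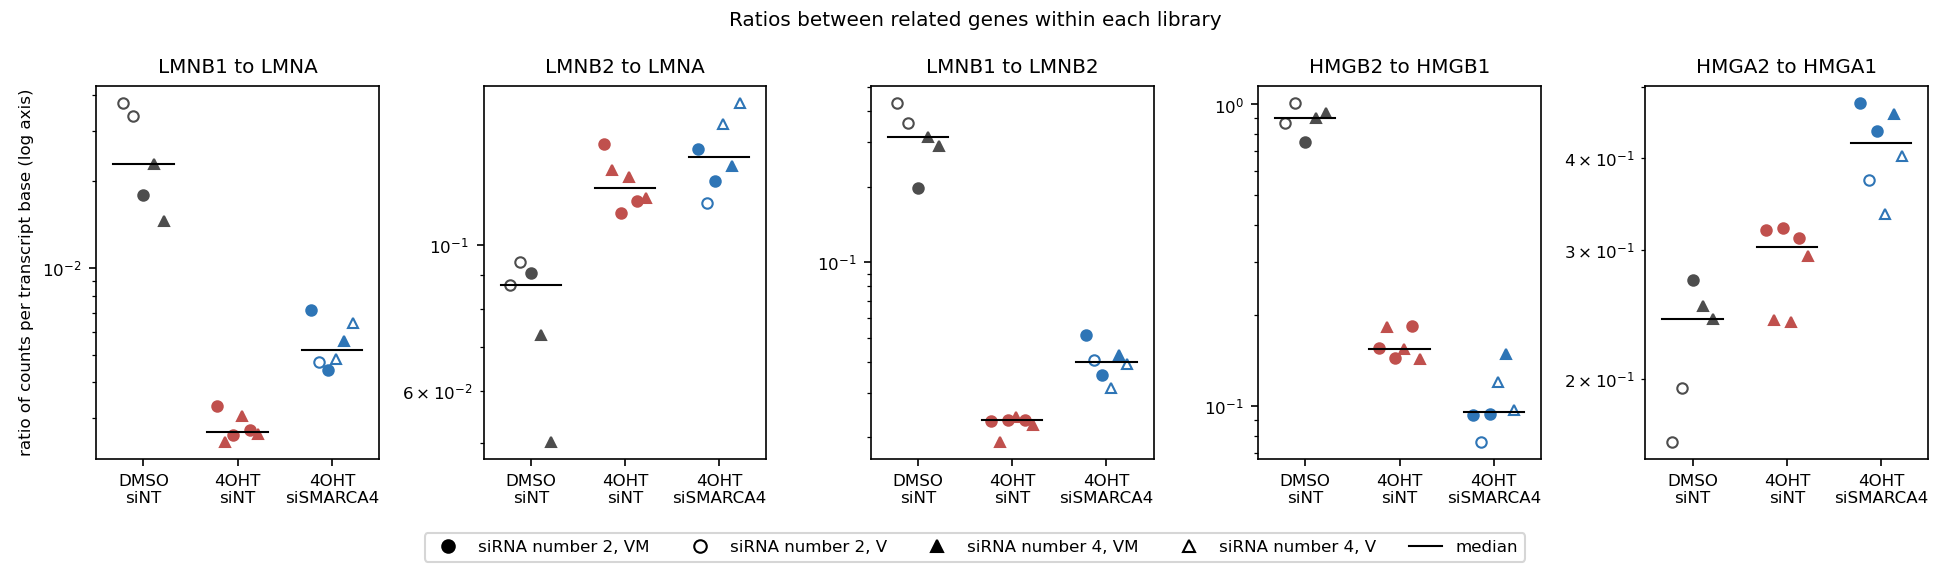
Ratio of counts per transcript base between related genes in each library (log axes), by group; symbols as for the counts, lines are medians. LMNB1 to LMNA lies at 0.0146 to 0.0375 in DMSO siNT, 0.00247 to 0.00330 in 4OHT siNT and 0.00443 to 0.00712 in 4OHT siSMARCA4, with no overlap between groups.

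Levels were compared between genes per 1000 bases of the MANE Select transcript. In DMSO siNT the order was HMGA1 (652 CPM per 1000 bases ± 43.8, SD, n = 5), LMNA (368 ± 64.5), HMGA2 (148 ± 35.4), EMD (48.2 ± 2.12), HMGB1 (37.7 ± 3.86), HMGB2 (33.9 ± 6.37), LMNB2 (28.2 ± 3.65), TMPO (15.4 ± 2.69), LMNB1 (8.92 ± 2.42) and LBR (8.29 ± 0.707). HMGB1, HMGB2 and LMNB2 overlapped with their neighbors in that order, as did LMNB1 with LBR. In 4OHT siNT LMNB1 was last, at 0.505 ± 0.0379 CPM per 1000 bases, and HMGB2 had moved to ninth at 3.09 ± 0.645. HMGA2 (194 ± 5.05) stood second and overlapped with LMNA (181 ± 10.1). With siSMARCA4, HMGA2 (205 ± 12.4) was above LMNA (124 ± 27.5) in every library. By the union of all annotated exons, LMNA instead kept second place in 4OHT siNT, and LMNB2 stood above HMGB2 in DMSO siNT. With siSMARCA4 the union gave means of 56.0 for HMGA2 and 48.4 for LMNA, but LMNA was the higher in library 2-3V.

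**Figure D4:**
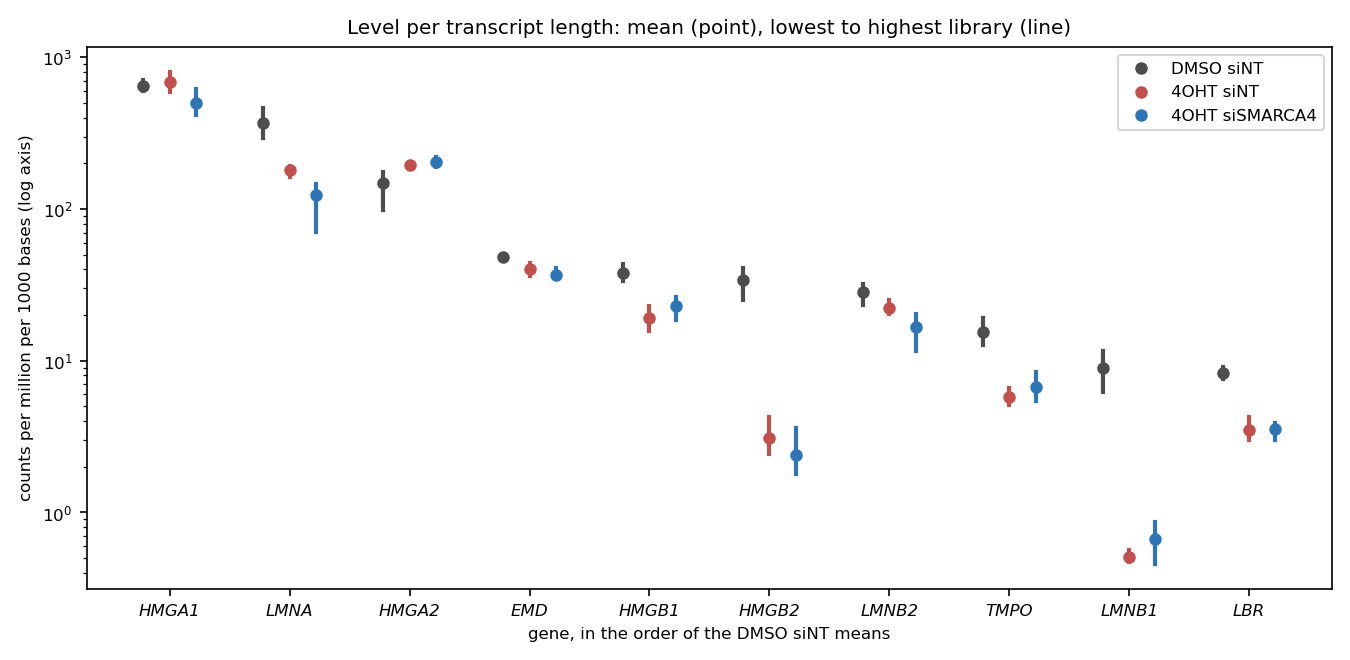
CPM per 1000 transcript bases (log axis) of the 10 genes, ordered by their DMSO siNT means; points are group means and lines run from the lowest to the highest library. LMNB1 (8.92, 0.505 and 0.669 in the 3 groups) and HMGB2 (33.9, 3.09 and 2.41) show the widest gaps between DMSO and 4OHT.

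Repeats were also counted one by one, and those within a gene but outside its exons, largely in introns, were summed. Repeats of either orientation were pooled although counting used strand, so part of these counts may not come from the host transcript. The antisense gene HMGA2-AS1 overlaps HMGA2 exons. LMNB1, LMNB2, TMPO and HMGB1 had under 20 such counts per library on average, and EMD and HMGB2 hold no such repeat, so 4 genes could be tested. HMGA2 had the most, with 481 to 982 counts in DMSO siNT, 859 to 1356 in 4OHT siNT and 1011 to 2207 in 4OHT siSMARCA4. Per 1000 HMGA2 gene counts this was 20.7, 39.05, 17.8, 16.8 and 17.7 in the controls and 26.9 to 34.6 (median 28.9) in 4OHT siNT, with 22.9 to 37.7 in 4OHT siSMARCA4. The control 2-2V lay above every 4OHT siNT library and the other 4 controls below them. The log2 difference was 0.48 (adjusted p = 0.10, exact permutation test), and without 2-2V it was 0.70 (adjusted p = 0.038, exact permutation test). One THE1A element (chr12:65921546-65923061), a long terminal repeat, took 17.9% of these HMGA2 counts.

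HMGA1 intronic repeats were 0.681 to 1.55 per 1000 gene counts in controls, 1.07 to 1.84 in 4OHT siNT and 0.512 to 1.28 with siSMARCA4. Differences of 0.70 and -0.68 (log2) had adjusted p = 0.069 each (exact permutation tests). A single MIR3 element (chr6:34238420-34238551) held 88.9% of them. LBR repeats were 12.4 to 24.5 per 1000 in controls and 16.9 to 39.1 in 4OHT siNT (log2 difference 0.78, adjusted p = 0.069, exact permutation test). LMNA repeats were 2.28 to 4.33 per 1000 in controls, 1.36 to 3.63 in 4OHT siNT and 2.42 to 8.09 with siSMARCA4, with adjusted p = 0.55 and 0.35 (exact permutation tests). The highest LMNA value was that of 4-3V, the library with the lowest LMNA level. None of the 8 tests passed, and 3 had an unadjusted p under 0.05.

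**Figure D5:**
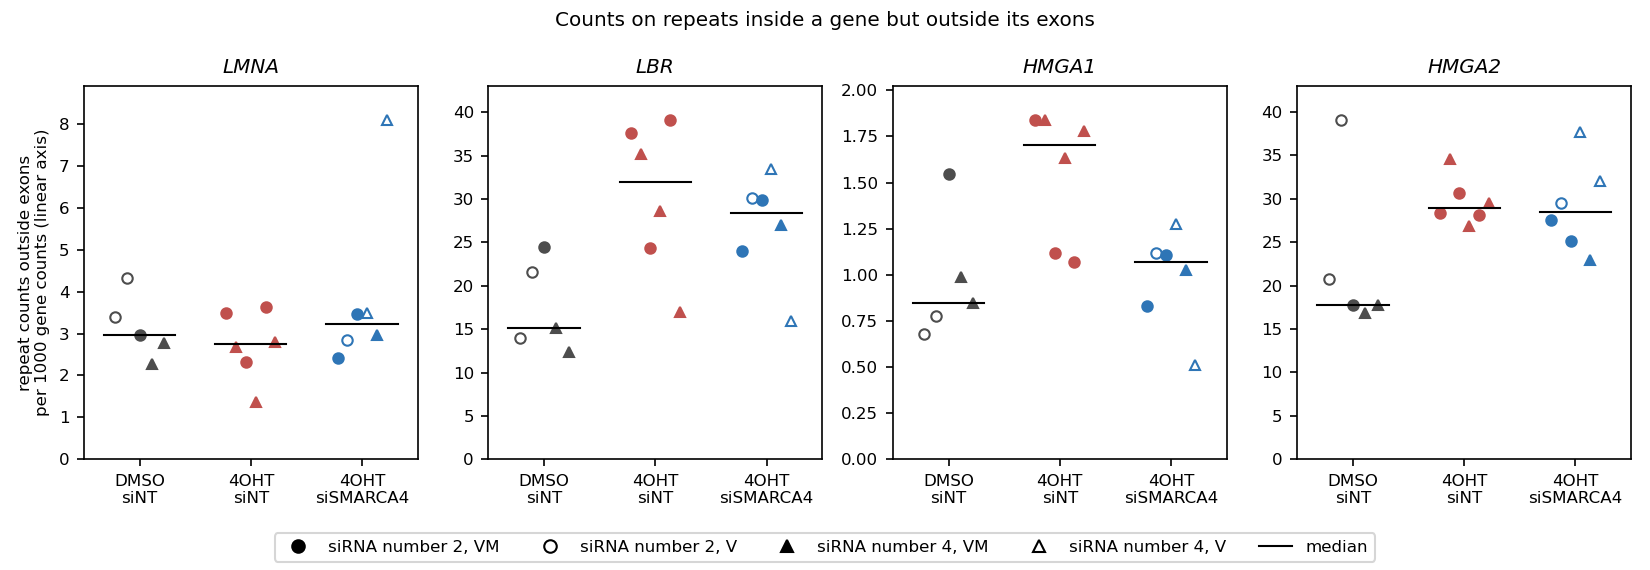
Counts on repeats outside exons per 1000 counts of the host gene (linear axes from 0) in each library, for the 4 genes with 20 or more such counts on average; symbols as for the counts, lines are medians. For HMGA2, 4 of 5 DMSO libraries lie below all 4OHT siNT libraries (26.9 to 34.6), and 2-2V lies above at 39.05.

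How the genes varied together within groups was described next. After subtracting group means, Pearson's r over the 17 libraries (given as a description, with no p, since both genes of a pair come from the same libraries and scaling) was highest for EMD with HMGA1 (0.74) and HMGB1 with HMGB2 (0.63). It was lowest for EMD with HMGB1 (-0.78), LBR with HMGA1 (-0.72) and HMGB1 with HMGA1 (-0.71). LMNB1 and HMGA2 had an r of -0.67. In DMSO siNT the V libraries were above the VM libraries for LMNB1 and LBR, and below them for HMGA2, EMD and HMGA1. In 4OHT siNT all libraries numbered 2 were above those numbered 4 for HMGB1, LBR and, narrowly, HMGB2. For EMD and HMGA1 they were all below. In 4OHT siSMARCA4 HMGB1 and EMD split by number in the same directions. The part of the tag and of the number in these r was not tested. For LMNB1, HMGB2 and HMGA2, genes were then picked by the highest r among all other genes tested. Such a choice by itself yields high values, and whether these r exceed what chance would give was not tested. The genes most like LMNB1 were CLDN23 (0.85), PARP1 (0.85), EXO1 (0.84), MCM6 (0.81) and MIR600HG (0.81). HMGB2 was nearest to HMGN2 (0.92), a nucleosome-binding HMG protein, then CARS2, DNAJC9, LINC02980 and ANXA4 (0.84 to 0.87). APCDD1L-DT (0.97), PNP (0.92), SPRYD3, RNF128 and SH3KBP1 (0.90 to 0.91) were most like HMGA2.

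Genes around the lamina and other HMG genes were set beside the 10. Of 12 other HMG genes, 8 fell and 2 rose in senescence, where 27.4% of all genes tested fell and 27.0% rose, with a median log2 fold change of -0.50. HMGN2 went from 173 ± 13.98 to 54.8 ± 5.31 CPM (SD; log2 fold change -1.66, SE 0.09), and HMGN5 had a log2 fold change of -1.33, whereas HMGXB3 rose by 1.15 and SSRP1, a subunit of the FACT histone chaperone, by 0.42. With siSMARCA4, where 10.4% of all genes rose and 13.8% fell, HMGN4 rose by 0.40 and SSRP1 fell by 0.28 on the log2 scale, and the other 10 did not pass, so the calls were not above the background. All log2 fold changes named for these genes had an adjusted p under 0.05 in the main fit (edgeR). Over the alternative fits HMGN5 in senescence ran from -2.15 to -0.70.

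Of 15 further lamina and inner-membrane partners, 5 fell and 3 rose in senescence (median -0.14), where 27.4% of all genes fell and 27.0% rose (10601 of 19473 called), so the total called was near the background. SYNE3, a nesprin of the outer nuclear membrane, had a log2 fold change of -1.47 and TMEM43 of -0.84, while ANKLE2 rose by 0.50 and TOR1A by 0.45. With siSMARCA4, 4 of the 15 fell, among them SYNE2 (-0.89) and SYNE3 (-0.51), and TOR1AIP2 (0.31) and TMEM43 (0.23) rose, against 13.8% of all genes lower and 10.4% higher. Of 6 genes for the enzymes that process the lamin tail and for NARF, which binds prelamin A, 3 rose in senescence (NARF by 1.08, RCE1 by 0.44 and FNTA by 0.38) and none fell. With siSMARCA4 none of these 6 passed in edgeR, nor had an unadjusted p under 0.05, and their log2 fold changes ran from -0.16 to 0.13. Of 29 nuclear pore genes tested, 11 fell (NUP37 by 1.08 and NDC1 by 1.03) and 4 rose (AHCTF1 by 0.53, NUP188 by 0.49, NUP58 by 0.44 and POM121 by 0.38), a total called that was again near the background. With siSMARCA4, NUP54 (0.43), NUP37 (0.38) and SEH1L (0.28) rose and SEC13 (-0.25) fell, which is not above those shares of all genes.

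Among 13 heterochromatin genes linked to senescence, 6 fell in 4OHT siNT and 4 rose, against 27.4% and 27.0% of all genes. The heterochromatin protein gene CBX1 had a log2 fold change of -0.68 and the histone variant gene MACROH2A2 of -0.62, whereas MACROH2A1 rose by 0.41. The HIRA complex genes UBN2 and UBN1 rose by 0.67 and 0.59. With siSMARCA4, HIRA fell by 0.35 and CBX3 rose by 0.41, against 13.8% of all genes lower and 10.4% higher. All 10 proliferation genes fell in senescence (27.4% of all genes did), with a median of -4.16, from -5.68 for MKI67 to -0.64 for PCNA. The changes of LMNB1 (-4.14), HMGB2 (-3.46), TMPO (-1.40), LBR (-1.24), LMNA (-1.03) and HMGB1 (-0.97) lie within that range, and those of LMNB2 (-0.33) and EMD (-0.26) outside it. With siSMARCA4, CDK1 (1.39), BUB1 (0.83) and TOP2A (0.68) rose (10.4% of all genes did), at levels far below the controls: CDK1 reached at most 2.17 CPM against 18.8 CPM or more in DMSO siNT.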

How the data were processed

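RNA was poly(A)-selected, strand-specific and sequenced as read pairs. The authors trimmed reads with cutadapt 4.7, aligned them to GRCh38 with HISAT2 2.2.1 (versions from the submitters' processing notes) and counted genes and repeats with TElocal, which used strand and shared multi-mapped pairs among their loci. They deposited these expected counts, whole numbers and not normalized, in 1 table per library. The paper names Ensembl release 100, but the tables list all 62700 genes of GENCODE 44, a later release, which gave positions and lengths here. Genes and repeat subfamilies were fitted together in edgeR 4.0.16 (quasi-likelihood, filterByExpr with minimum count 10 and total 15, TMM factors 0.949 to 1.08, 1 term per group, 17 libraries), with Benjamini-Hochberg adjustment over 19473 genes and a call at an adjusted p under 0.05. Of the 1261 subfamilies, 1026 passed the filter and were fitted. SE is the log2 fold change divided by the root of F. Fits were tested on simulated independent libraries in which few genes changed, unlike here. That test does not cover scaling or error rates in these data. Ratios and intronic repeats were compared by exact permutation tests, adjusted over 10 and 8 tests. Alternatives used DESeq2 1.42.0, limma 3.58.1 and subsets of libraries. No 2 libraries agreed within counting noise, and labels shared between groups did not pair libraries. The genes, lists and words were chosen with earlier results of these data known. Named list genes were the 2 highest and 2 lowest called per list and comparison. Where a count was small, FNTA, NUP58, POM121, SEH1L, TOP2A and PCNA were added after their values were seen. MACROH2A1 was likewise added beside MACROH2A2 after its value was seen.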

Additional observations from a re-analysis of the deposited data

Results flagged for a closer look

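In 60 sets of 5 or 6 library values (the 10 genes, SMARCA4, the ratios and the intronic repeats in each group), 6 held a lowest or highest library that stood apart by Dixon's criterion, which chance meets in about 1 of 20 sets. LMNA was 224.5 CPM in 4OHT siSMARCA4 4-3V, the lowest of 6. The same library had the highest LMNA intronic repeats relative to the gene, 3.016 as log2 counts per 1000 LMNA counts. Its 94 repeat counts lay within the 47 to 101 of the group, while its 11622 LMNA counts were the lowest. These 2 flags are thus not independent. HMGB2 was 5.209 CPM in 4OHT siSMARCA4 4-2VM, the highest of 6. HMGA2 was 837.6 CPM in 4OHT siNT 4-3VM, the highest of 6 values that run from 777 CPM. The log2 ratio of LMNB1 to LMNB2 was -5.712 in 4OHT siNT 4-1VM, the lowest of 6. HMGA2 intronic repeats were 5.287 (log2 per 1000 HMGA2 counts) in DMSO siNT 2-2V, the highest of 5. What sets these libraries apart was not tested.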

How the results depend on the processing

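Of the alternative fold changes of the 10 genes, 757 kept direction and side of the threshold, 13 lost a call, 7 gained one and 13 changed sign. For SMARCA4 and the named list genes, without those added after their values were seen, 881 kept both and 43 lost a call. Among them NUP188 in senescence ran from 0.16 to 0.77, and SEC13 with siSMARCA4 from -0.39 to -0.04. The 8 genes called lower in senescence stayed lower in sign throughout, and LMNB2, EMD and HMGA2 lost their calls as given above or below. HMGA1 in senescence turned to -0.038 with library totals, -0.065 with libraries numbered 2 alone and -0.015 with VM libraries alone. With siSMARCA4, LBR turned to -0.13 with libraries numbered 2 alone and ran from -0.030 to 0.078 as single libraries were left out; TMPO turned to -0.070 with the replicate block, -0.029 with the tag as a covariate and -0.024 with VM libraries alone; HMGA2 intronic repeats ran from -0.12 to 0.024 as single libraries were left out. In senescence 0 of the 10 genes were called higher with the replicate block, with libraries numbered 4 alone or with VM libraries alone, and against DMSO siNT the siSMARCA4 group had 0 higher with the block or libraries numbered 4 alone. For siSMARCA4 against siNT, 1 was higher with libraries numbered 2 alone, 2 with VM libraries alone, and 0 to 2 as single libraries were left out (1 without 4-2V, 2 without 4-3V), and 0 were lower with libraries numbered 4 alone. Repeat tests called ran from 0 to 1, with 1 without DMSO siNT 2-2V. The causes were not tested. Libraries with the same full label in different groups had deviations correlated at r from -0.45 to 0.297, so the labels were not taken as pairs. Within 4OHT siNT, r ran from -0.485 (2-1VM and 2-2VM) to 0.664 (2-2VM and 2-3VM) for libraries of 1 number. For libraries of different numbers it ran from -0.774 (4-1VM and 2-2VM) to 0.289 (2-1VM and 4-1VM). In DMSO siNT these ranges were -0.041 to 0.255 and -0.596 to -0.317. In 4OHT siSMARCA4 they were -0.407 to 0.271 and -0.562 to 0.094. By tag, r in 4OHT siSMARCA4 was 0.022 to 0.271 for pairs of VM libraries and -0.228 to 0.169 for pairs of V libraries. For mixed pairs it was -0.562 to -0.101, below all pairs of VM libraries. In DMSO siNT pairs of VM libraries (-0.509 to 0.241) and mixed pairs (-0.596 to -0.026) overlapped. The main fit held no term for the number or the tag and took libraries as independent. With the replicate block (the full label, 4 residual degrees of freedom), EMD in senescence was -0.24 (adjusted p = 0.071, edgeR) and HMGA2 0.20 (adjusted p = 0.094, edgeR). Calls over all genes went from 10601 to 7928 in senescence, 4703 to 3045 with siSMARCA4 and 10725 to 6329 for siSMARCA4 against DMSO siNT. No V label was shared between groups, so the block compared VM libraries only. Libraries numbered 4 alone gave 1198 calls with siSMARCA4 (725 higher, 473 lower) in place of 4703 (2018 higher, 2685 lower). Libraries numbered 2 alone gave 4479 calls and VM libraries alone 5303. Ratio tests within 1 number cannot reach the threshold. Low depth limits LMNB1 in senescence and intronic repeats in LMNB1, LMNB2, TMPO and HMGB1.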
